A study of Rattus norvegicus with 6 samples.

Results

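Endothelial cells line the dense capillary bed of the pancreatic islet, and some of them remain among the hormone cells when islets are taken apart for culture. The genes described here are markers of that cell type: Pecam1, Cdh5, Kdr, Flt1, Plvap, Esam, Tie1, Tek and Egfl7. They are a list of names and no threshold on a measured value was used to pick them, but the list was drawn up with earlier results of these data known. Of the 9 names, 8 were found among the 28656 gene names of the deposited table of rat transcript abundances, and all 8 passed the filter on low values that left 13927 names for testing. No gene of the table carried the name Pecam1, which was not analysed here.

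Both groups were dissociated pancreatic islet cells of male Wistar rats aged 12 weeks, isolated with collagenase, purified on a density gradient and by handpicking, and separated into single cells with trypsin. The cells were transfected in culture with an antisense oligonucleotide of the LNA gapmeR type, which directs the cleavage of its target RNA. In 3 samples the gapmeR was aimed at ci-Ins2, a circular RNA made from an intron of the insulin gene Ins2, and in 3 samples it was a control gapmeR, so both groups carried a gapmeR and the transfection reagent. RNA was taken after 48 h and sequenced from polyadenylated molecules. The reporting summary of the study says of its cell lines and rat islet cells that the groups of each replicate came from the same passage or the same animal. For islet cells this was read as the same animal, so replicate 1 of both groups is called animal 1 below, and likewise for 2 and 3. Whether islets of several rats were pooled in a replicate is not stated there. Isolation, dissociation and transfection may have differed along with the replicate number. A difference between animals below therefore cannot be told apart from one between preparations. Because the samples are mixtures, fewer endothelial cells and less RNA of a gene in each endothelial cell cannot be told apart. The gapmeRs are shown because they define the groups.
rat ci-Ins2 gapmeR: gcttacagacacatag
control gapmeR: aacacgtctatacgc

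Islet capillaries depend on vascular endothelial growth factor A (VEGFA) released by the hormone cells, and their endothelium is fenestrated, which lets insulin pass quickly into the blood. Kdr encodes VEGF receptor 2, the main signalling receptor for VEGFA, and Flt1 encodes VEGF receptor 1, which binds VEGFA tightly but signals weakly. Tek encodes TIE2, the receptor of the angiopoietins, and Tie1 its partner. Cdh5 encodes VE-cadherin, the adhesion molecule of endothelial junctions, and Esam encodes another junction protein. Plvap forms the diaphragms of fenestrae, and Egfl7 is a secreted protein of endothelial cells.

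Promoter sequence was looked up for the members because their levels moved together across the libraries, as described below. RefSeq entries of the GRCr8 rat build covered 5 of the 9 genes in 6 windows, each from 250 bases before to 50 bases after an annotated start, with Egfl7 present by 2 starts. The letters AGGAAG, a core that ETS family factors bind and that many endothelial promoters hold, were searched on both strands as AGGAAG and CTTCCT. They occurred in 4 of the 6 windows, against 34.5% of 33469 promoters of the same length. GATAA, a core of GATA factor sites, with its reverse complement TTATC, occurred in 2 of the 6, against 26.5%. TATAAA, the TATA box, with its reverse complement TTTATA, also occurred in 2 of the 6, against 14.2%. The last 2 motifs share the letters ATAA. The GC content of the 6 windows ran from 59.3% to 72.7%, against a median of 51.7% over all promoters. The windows thus differed in base composition from the promoters they are set against. The windows of Flt1 and Plvap each held 2 matches of AGGAAG, that of Tie1 held 1, and that of Kdr held 0. The first window of Egfl7 held 2 matches and its second held 0. A match describes the letters and is not evidence of binding. The sequences run 5′ to 3′, with the matches of AGGAAG or CTTCCT in capitals. They are shown for Plvap and for the receptors that have a window, which Tek does not.
Flt1, chr12:12333180-12333479, plus strand: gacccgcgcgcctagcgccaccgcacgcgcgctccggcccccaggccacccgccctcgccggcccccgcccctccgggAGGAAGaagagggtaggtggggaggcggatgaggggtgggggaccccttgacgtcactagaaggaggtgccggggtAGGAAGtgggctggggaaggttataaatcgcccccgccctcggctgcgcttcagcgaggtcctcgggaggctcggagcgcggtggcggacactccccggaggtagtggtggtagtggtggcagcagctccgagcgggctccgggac
Plvap, chr16:18231230-18231529, minus strand: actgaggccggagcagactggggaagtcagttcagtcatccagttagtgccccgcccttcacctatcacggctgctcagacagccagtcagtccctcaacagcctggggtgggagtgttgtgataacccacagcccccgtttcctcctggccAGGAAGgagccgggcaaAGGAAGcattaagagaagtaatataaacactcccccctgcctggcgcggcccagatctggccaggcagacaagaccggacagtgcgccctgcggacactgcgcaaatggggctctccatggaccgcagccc
Tie1, chr5:137304932-137305231, minus strand: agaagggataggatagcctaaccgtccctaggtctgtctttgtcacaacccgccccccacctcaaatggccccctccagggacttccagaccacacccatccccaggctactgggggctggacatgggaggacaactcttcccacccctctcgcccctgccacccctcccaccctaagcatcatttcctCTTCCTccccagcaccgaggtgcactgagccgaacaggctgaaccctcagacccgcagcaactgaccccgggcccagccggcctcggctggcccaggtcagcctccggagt
Kdr, chr14:32571813-32572112, plus strand: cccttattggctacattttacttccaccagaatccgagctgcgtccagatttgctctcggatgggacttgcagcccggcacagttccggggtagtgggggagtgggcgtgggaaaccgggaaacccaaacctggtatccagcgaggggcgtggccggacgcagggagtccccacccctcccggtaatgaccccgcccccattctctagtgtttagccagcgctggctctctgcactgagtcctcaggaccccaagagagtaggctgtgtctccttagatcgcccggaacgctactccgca

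The deposited values are relative abundances per transcript that sum to 10000000 in each library, 10 times the scale of TPM, a scale of transcripts relative to the library total. They were divided by 10 and summed by gene name, and the result is called a unit here. No source used here names the unit. If they are TPM times 10, they account for transcript length, and the comparisons of level between genes below hold on that condition only. They carry no read depth, so the counting error behind a low value is unknown. Ins2 stood at 78644, 74619 and 76679 units in ci-Ins2 libraries 1, 2 and 3, against 78914, 75712 and 76996 units in control libraries 1, 2 and 3, so the cells carried the defining beta cell transcript at a very high level in both groups. The circular RNA itself has no value in these tables, so its knockdown could not be checked here.

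Endothelial transcripts were scarce. The 8 markers together came to 40.8, 41.7 and 17.9 units in ci-Ins2 libraries 1, 2 and 3, against 49.0, 39.3 and 21.3 units in control libraries 1, 2 and 3. The lowest library of each group was that of animal 3. The sums averaged 33.5 ± 13.5 units with the ci-Ins2 gapmeR and 36.6 ± 14.1 units with the control gapmeR (SD, n = 3 each), a difference smaller than either spread. The 9 markers of beta cells in the table came to 184965, 181224 and 185689 units in the ci-Ins2 libraries, against 187016, 184807 and 185170 units in the control libraries. Ins1 and Ins2 made up most of this sum, with means of 79434 and 76927 units over the 6 libraries. The sum therefore says little about the other beta cell markers.

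Kdr was the most abundant member, at 9.94, 9.32 and 2.86 units in ci-Ins2 libraries 1, 2 and 3, against 14.3, 9.97 and 4.33 units in control libraries 1, 2 and 3. The groups overlapped, but within each animal the ci-Ins2 library was the lower one. Kdr averaged 7.38 ± 3.92 units with the ci-Ins2 gapmeR and 9.54 ± 5.01 units with the control gapmeR (SD, n = 3 each). Its log2 fold change, computed on log2 of the value plus 1 and so understated for low genes, was -0.38 with a standard error of 0.51. The adjusted p from limma without a block was 0.73. With the animal as a block the standard error was 0.089 and the adjusted p from limma was 0.044, so Kdr fell in that fit. Within the animals, the log2 difference was -0.51, -0.15 and -0.50 for animals 1, 2 and 3.

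Flt1, the other VEGF receptor of blood vessels, lay at 1.91, 2.47 and 0.730 units in ci-Ins2 libraries 1, 2 and 3, against 2.68, 2.32 and 1.15 units in control libraries 1, 2 and 3. The ci-Ins2 library was lower in animals 1 and 3, and the groups overlapped. The log2 fold change was -0.23 with a standard error of 0.30, and the adjusted p from limma was 0.73 without a block and 0.18 with it.

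Among the receptors of the angiopoietin system, Tie1 had 3.32, 4.12 and 1.52 units in ci-Ins2 libraries 1, 2 and 3, against 4.05, 3.46 and 1.94 units in control libraries 1, 2 and 3. Tek, the receptor that binds the ligands, had 1.05, 1.13 and 0.421 units in the ci-Ins2 libraries, against 1.14, 0.854 and 0.397 units in the control libraries. Neither gene separated the groups, and Tek reached 1 unit in only 3 of the 6 libraries, the fewest that the filter allowed. The log2 fold changes were -0.11 for Tie1, with an adjusted p of 0.87 in limma, and 0.03 for Tek, with an adjusted p of 0.95.

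Of the junction genes, Cdh5 had 6.29, 6.62 and 1.66 units in ci-Ins2 libraries 1, 2 and 3, against 7.94, 6.12 and 3.38 units in control libraries 1, 2 and 3. The ci-Ins2 library of animal 3 held 49.1% of the Cdh5 level of its control, whereas that of animal 2 held 108%. Esam had 5.50, 5.77 and 3.18 units in the ci-Ins2 libraries, against 7.06, 4.83 and 3.03 units in the control libraries. Its ci-Ins2 library was the lower one in animal 1 and the higher one in animals 2 and 3. The log2 fold change was -0.34 with a standard error of 0.45 for Cdh5, which had an adjusted p in limma of 0.72 without a block and 0.17 with it. For Esam it was -0.05 with a standard error of 0.28, and the adjusted p in limma was 0.94.

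Plvap, the fenestral diaphragm gene, had 7.62, 7.88 and 3.93 units in ci-Ins2 libraries 1, 2 and 3, against 6.43, 7.58 and 4.32 units in control libraries 1, 2 and 3. The secreted factor Egfl7 had 5.19, 4.35 and 3.62 units in the ci-Ins2 libraries, against 5.42, 4.19 and 2.78 units in the control libraries. The groups overlapped for both genes, and for both the lowest value of each group was in animal 3. Plvap had a log2 fold change of 0.01 with a standard error of 0.27 and an adjusted p in limma of 0.99. For Egfl7 these were 0.06, 0.20 and 0.90.

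**Figure D1:**
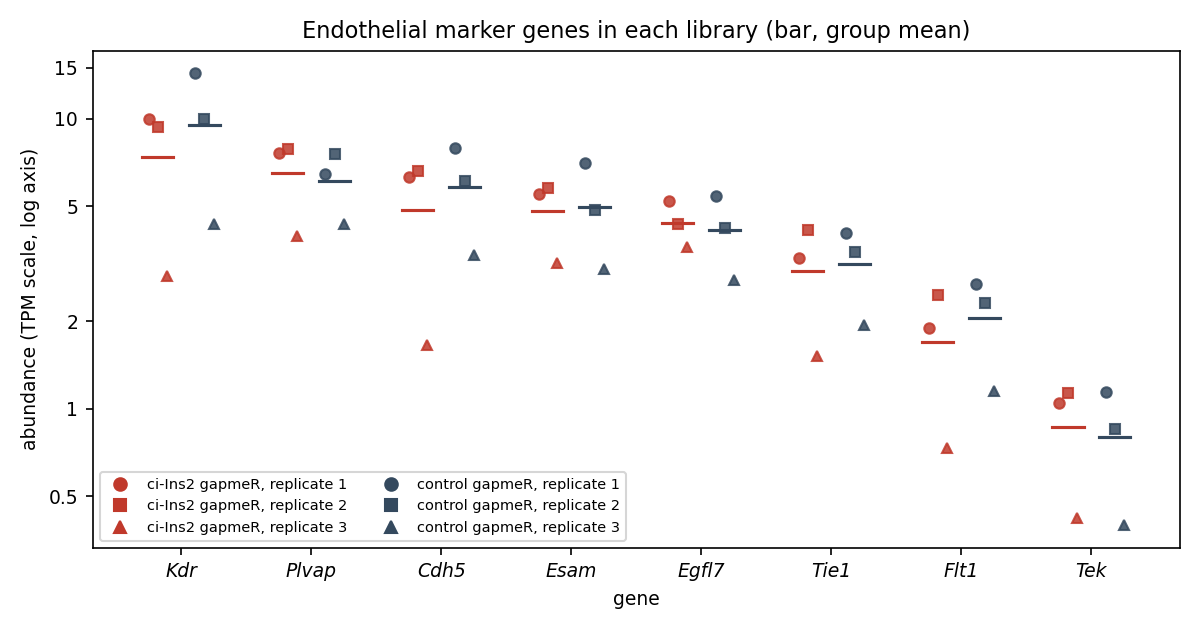
Abundance of the 8 endothelial markers in each library, on a log axis in units of the TPM scale, with ci-Ins2 libraries left of control libraries for each gene, a symbol for each replicate number and a bar at the group mean. The triangles of replicate 3 lie lowest in both groups for every gene, for example at 2.86 and 4.33 units for Kdr, and the groups overlap.

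Without a block, 0 of the 8 markers passed the threshold of an adjusted p of 0.05 in limma, against 3.50% of all genes tested that were lower and 1.01% that were higher with the ci-Ins2 gapmeR. At an unadjusted p under 0.05 the count was also 0. With the animal as a block, 1 of 8 was lower, namely Kdr, where 10.3% of all genes were lower and 5.23% higher, so the members' share was near that of all genes. Fold changes were negative for 5 members and positive for 3, with a median of -0.08 on the log2 scale, against 0.00 over all genes. Kdr was the only member of the 8 that was lower in the ci-Ins2 library of all 3 animals, a pattern that 27.8% of all genes shared. No member had groups that did not overlap, while 13.9% of all genes lay lower and 13.0% higher with no overlap.

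The precision was limited by the spread between animals. Without a block, the 95% interval of the log2 fold change of Kdr ran from -1.59 to 0.82, and with the animal as a block from -0.61 to -0.16. The median standard error over the members was 0.29 without a block and 0.095 with it, against 0.083 and 0.059 over all genes. Over the 5059 genes within the members' range of levels, the median standard errors were 0.11 and 0.078. The block therefore narrowed the members' errors more than those of genes of like level. With the animal as a block, the interval of Plvap ran from -0.19 to 0.21 and that of Esam from -0.32 to 0.21. Changes within these bounds are not excluded by the fit. The intervals are not adjusted for the number of genes, so a change beyond them could also miss the adjusted threshold.

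The call on Kdr depended on single animals. In fits with the block that left out 1 library each, its log2 fold change stayed between -0.51 and -0.32, and it passed the threshold in 2 of 6, with adjusted p-values from limma between 0.030 and 0.19. Leaving out either library of animal 2, the animal with the smallest difference, kept the call, while leaving out either library of animal 1 or of animal 3 lost it. With the block, a library left out takes its whole animal out of the difference. The 6 fits thus amount to leaving out each of the 3 animals, and fewer animals set the error in each.

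**Figure D2:**
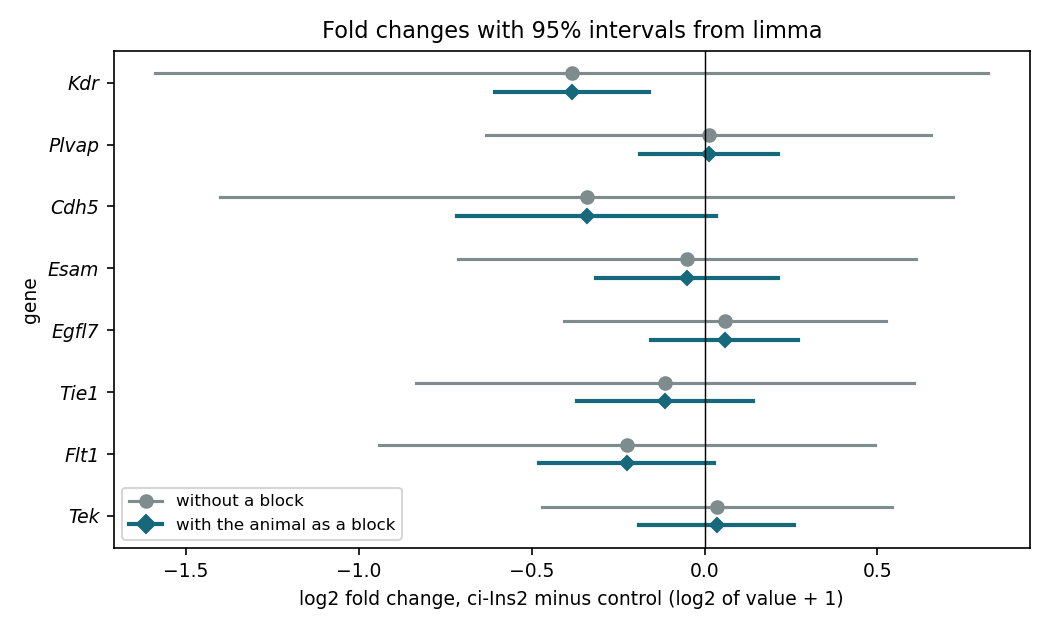
Log2 fold change of each marker, ci-Ins2 minus control, on log2 of the value plus 1, with 95% intervals from limma without a block (circles) and with the animal as a block (diamonds). Only the blocked interval of Kdr, from -0.61 to -0.16, lies apart from 0.

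On the condition that the values are corrected for length, the order of the levels was Kdr, Plvap, Cdh5, Esam, Egfl7, Tie1, Flt1 and Tek by the mean over the 6 libraries. In each library, Egfl7 exceeded Tie1, Tie1 exceeded Flt1, and Flt1 exceeded Tek. The log2 ratio of Flt1 to Tek was 1.17 ± 0.30 and that of Tie1 to Flt1 0.75 ± 0.18 (SD, n = 6). The 4 steps above, from Kdr to Egfl7, held in 5 of 6 libraries each and were smaller than their spread, for example 0.29 ± 0.53 for Kdr over Plvap and 0.02 ± 0.48 for Cdh5 over Esam. Even the most abundant member ranked 8532 among the 13927 tested genes by mean level, and Tek ranked 13919.

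The make-up of the sum differed with the animal and, for Kdr and Tek, in the same direction between the groups within each animal. Such agreement is common, as by level 27.8% of all genes were lower and 27.8% higher in all 3 animals. The shares are also parts of the same sum, so a lower share of Kdr raises the others. Kdr gave 24.4%, 22.4% and 16.0% of the 8-gene sum in ci-Ins2 libraries 1, 2 and 3, against 29.2%, 25.3% and 20.3% in control libraries 1, 2 and 3. Its share was the lower one in the ci-Ins2 library of each animal. The small share of Tek was the higher one in the ci-Ins2 library of each animal. It was 2.56%, 2.72% and 2.35% in ci-Ins2 libraries 1, 2 and 3, against 2.33%, 2.17% and 1.86% in control libraries 1, 2 and 3. Cdh5 gave 15.4%, 15.9% and 9.26% in the ci-Ins2 libraries, against 16.2%, 15.6% and 15.8% in the control libraries. The outlying share of Cdh5 was that of ci-Ins2 library 3, where Egfl7 made up 20.2%, against 13.0% in control library 3. An exact two-sided permutation test of a single share that ignores the pairing cannot go below a p of 0.1 with 3 libraries in each group. No test of the shares was made, with or without the pairing.

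Most of the spread in these genes followed the replicate number, read here as the animal with its preparation. In a fit with group and animal, which was added after the data had been seen, 6 of the 8 markers differed between animals by the F test of limma at an adjusted p of 0.05, against 7.03% of all genes. The 6 were Kdr, with an adjusted p of 0.0055, Plvap with 0.024, Cdh5 with 0.033, Flt1 and Tie1 with 0.034 each, and Esam with 0.046. For Tek the adjusted p was 0.062 and for Egfl7 it was 0.066. The count fell to 1 without ci-Ins2 library 2, where 1.52% of all genes passed. It was 2 without control library 1, where 1.72% passed, and 3 without ci-Ins2 library 3, where 6.73% passed. Kdr passed in each of these. With no filter on low values, 0 of 8 passed, where 0.742% of all genes did.

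Animal 3 was the low one. Its library was the lowest of the group for 8 of 8 markers in both groups, which was true of 15.1% of all genes. For 7 of the 8 it lay at least 1.5-fold below the mean of the other 2 libraries in both groups, against 1.95% of all genes. These patterns were noticed in the values and are given as a description. Cdh5 in animal 3 stood at 0.257 times the mean of animals 1 and 2 with the ci-Ins2 gapmeR and at 0.480 times with the control gapmeR. For Kdr the ratios were 0.297 and 0.356, and for Tek 0.386 and 0.398. Egfl7, the exception, had ratios of 0.759 and 0.578. Over the 6 libraries the 28 pairs of members had Pearson correlations from 0.715 to 0.990 with a median of 0.917. The points share 3 animals and a common scale within each library, so these values describe the libraries.

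Other endothelial genes were low as well. Of 36 further endothelial markers in the table, 17 passed the filter. Cldn5, a tight junction gene that defines endothelium in many tissues, was at 0 in 5 libraries and at 0.025 units in control library 2. Vwf, von Willebrand factor, lay between 0.246 and 0.680 units in the ci-Ins2 libraries and between 0.303 and 0.646 units in the control libraries. Both were named after their values were seen. Eng, a co-receptor of the transforming growth factor beta family, had 17.8, 23.1 and 9.83 units in ci-Ins2 libraries 1, 2 and 3, against 23.4, 22.0 and 12.7 units in control libraries 1, 2 and 3, with animal 3 lowest in both groups. Of the 17, 0 passed in limma without a block in either direction and 1 had an unadjusted p under 0.05, with a median log2 fold change of -0.12. With the block 1 was higher and 0 lower, against 5.23% higher and 10.3% lower of all genes. In both cases that gene was Ramp2, a co-receptor that turns the calcitonin receptor-like receptor into a receptor for adrenomedullin. Ramp2 had 58.7, 63.5 and 55.8 units in the ci-Ins2 libraries, against 49.4, 46.1 and 41.4 units in the control libraries. The groups did not overlap, the log2 fold change was 0.33, and the adjusted p from limma was 0.068 without a block and 0.014 with it. Its Pearson correlation with the average profile of the members, described below, was 0.287, the lowest of the 17. Between animals its adjusted p by the F test of limma was 0.21. Whether its signal comes from endothelial cells was not tested. Ramp2 was far above the 8 markers, and its partner Calcrl had 1.94, 1.96 and 1.01 units in the ci-Ins2 libraries, against 2.93, 1.79 and 1.46 units in the control libraries. Between animals, 8 of the 17 differed by the F test, against 7.03% of all genes, and 15 of the 17 had their lowest value of both groups in animal 3, against 15.1% of all genes.

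Markers of lymphatic endothelium were mixed in level. Ccl21, a chemokine of lymphatic vessels, was listed at 0 in all 6 libraries, and Lyve1, a hyaluronan receptor, lay at 0.012 units or less. Mmrn1 lay at 0.033 units or less, Flt4, the receptor of VEGFC, between 0.153 and 0.528 units, and Reln between 0.095 and 0.720 units. Pdpn, which other cell types also express, had 4.09, 5.71 and 4.06 units in ci-Ins2 libraries 1, 2 and 3, against 3.81, 5.01 and 2.71 units in control libraries 1, 2 and 3, a level within the range of the 8 members. It alone of the 6 lymphatic markers passed the filter, with a log2 fold change of 0.19 and an adjusted p in limma of 0.65.

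Ligands of these receptors were then examined. Vegfa, the ligand of the receptors that Kdr and Flt1 encode, had 888, 859 and 918 units in ci-Ins2 libraries 1, 2 and 3, against 1082, 928 and 1001 units in control libraries 1, 2 and 3. Each ci-Ins2 value lay below each control value, with no low library for animal 3. The log2 fold change was -0.22, with an adjusted p from limma of 0.093 without a block and 0.028 with it, so Vegfa fell in the blocked fit only. Vegfb, another ligand of VEGF receptor 1, had 21.4, 20.2 and 22.9 units in the ci-Ins2 libraries, against 22.0, 21.3 and 21.7 units in the control libraries, and its adjusted p in limma was 0.67. Angpt2, an angiopoietin that endothelial cells make themselves, had 2.52, 3.14 and 1.39 units in the ci-Ins2 libraries, against 2.61, 3.34 and 1.40 units in the control libraries. Its adjusted p in limma was 0.92 between groups and 0.016 between animals, with animal 3 lowest in both groups. The co-receptors Nrp1 and Nrp2 had adjusted p-values of 0.65 and 0.76 between groups. Of the 11 ligands and co-receptors listed, 5 passed the filter. Without a block 0 of these passed in limma, with 1, Vegfa, at an unadjusted p under 0.05, and with the block 1 was lower and 0 higher, where 10.3% and 5.23% of all genes were.

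Genes of sprouting and tip endothelium repeated the animal pattern. Of 14 listed, 5 passed the filter, and all 5 differed between animals by the F test of limma, against 7.03% of all genes. Between groups 0 of the 5 passed in limma without a block, and 0 had an unadjusted p under 0.05. Esm1, a proteoglycan of endothelial cells that VEGF signalling raises, had 1.60, 2.24 and 0.932 units in ci-Ins2 libraries 1, 2 and 3, against 2.13, 3.13 and 1.42 units in control libraries 1, 2 and 3. It was lower in the ci-Ins2 library of each animal, with a log2 fold change of -0.34 and an adjusted p in limma of 0.50 without a block and 0.034 with it. It was the only 1 of the 5 called with the block, where 10.3% of all genes were lower. Pdgfb, the growth factor with which endothelium recruits pericytes, had a log2 fold change of -0.19 and an adjusted p with the block of 0.098. For Cxcr4, a chemokine receptor of tip cells, these were -0.18 and 0.18.

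**Figure D3:**
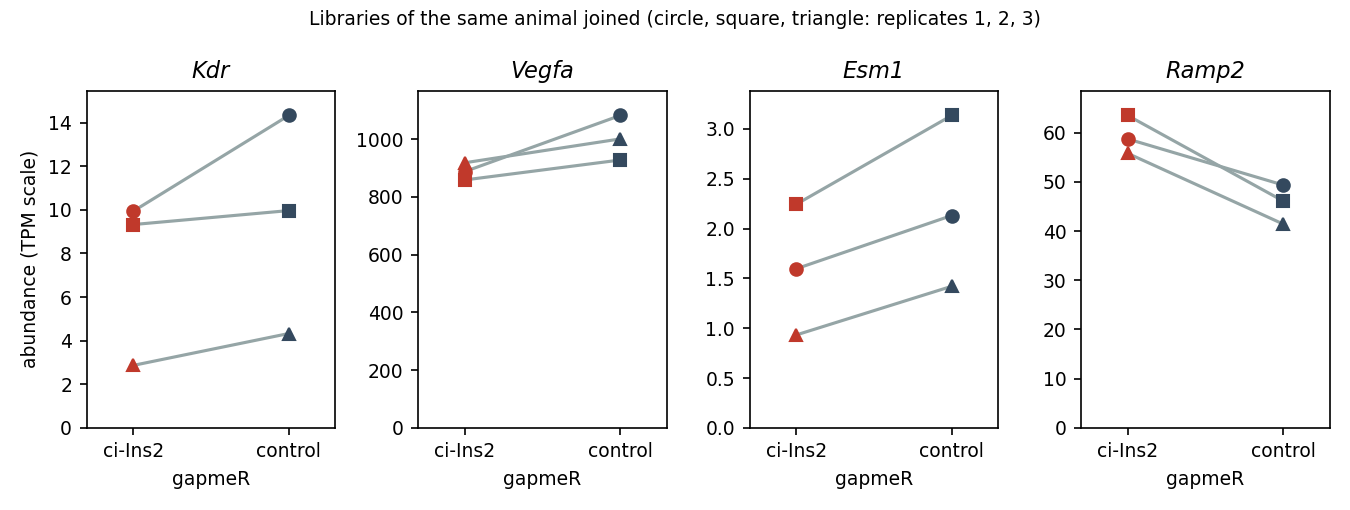
Levels of Kdr, Vegfa, Esm1 and Ramp2 in units of the TPM scale from 0, with the ci-Ins2 library at the left and the control library of the same animal at the right of each line. Kdr, Vegfa and Esm1 are lower and Ramp2 higher in the ci-Ins2 library of each animal, and for Kdr the triangles of animal 3 lie at 2.86 and 4.33 units.

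Cell types that share the vessel wall were compared by library. Markers of pericytes and smooth muscle, the mural cells of vessels, summed to 340, 558 and 264 units in ci-Ins2 libraries 1, 2 and 3, against 446, 603 and 325 units in control libraries 1, 2 and 3. Animal 3 was lowest in both groups for 11 of the 11 mural genes, against 15.1% of all genes, and 9 of the 11 differed between animals by the F test, against 7.03% of all genes. Between groups 0 of 11 passed without a block, and with it 1 was lower, near the 10.3% of all genes. This was the actin-binding gene Tagln, with a log2 fold change of -0.34 and an adjusted p in limma of 0.0093. Rgs5, a regulator of G protein signalling in pericytes, had 54.0, 57.9 and 26.5 units in the ci-Ins2 libraries, against 75.2, 51.3 and 25.6 units in the control libraries, close to the shape of the endothelial markers.

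The sums of fibroblast and stellate cell markers were, like the mural sums, highest in animal 2 and lowest in animal 3. They came to 280, 589 and 209 units in ci-Ins2 libraries 1, 2 and 3, against 394, 687 and 296 units in control libraries 1, 2 and 3. Of the 7 tested, 0 passed without a block and 3 were lower with it, against 10.3% of all genes. These were the collagen genes Col1a1, Col1a2 and Col3a1. Of 9 tested genes of the vascular basement membrane, the sheet on which endothelium and pericytes rest, 0 passed without a block. With the block 5 were lower, against the same 10.3%, namely Col4a1, Col4a2, Lamb2, Nid1 and Sparc, of which Lamb2 and Nid1 were named after their values were seen. Col4a1 had 30.3, 43.9 and 20.1 units in the ci-Ins2 libraries, against 42.6, 46.7 and 30.4 units in the control libraries, with a log2 fold change of -0.42 and an adjusted p in limma of 0.46 without a block and 0.038 with it.

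Macrophage and other immune markers ran the opposite way across animals. They summed to 33.2, 51.0 and 72.8 units in ci-Ins2 libraries 1, 2 and 3, against 52.0, 67.4 and 89.5 units in control libraries 1, 2 and 3, and animal 3 was the highest in both groups. The sum was also lower in the ci-Ins2 library of each animal. Of 10 tested, 0 passed without a block and 3 were lower with it, against 10.3% of all genes. These were the complement genes C1qa, C1qb and C1qc. The sums of mural, fibroblast and immune markers thus lay lower in the ci-Ins2 library of each animal, as Kdr did. The endothelial sum did so in animals 1 and 3 only. Tagln made up most of the mural sum, with 225, 408 and 198 units in ci-Ins2 libraries 1, 2 and 3. In control libraries 1, 2 and 3 it had 292, 461 and 251 units. The mural order between the groups therefore rests largely on Tagln, and no contrast between the cell types is drawn. At an unadjusted p under 0.05 without a block the counts in limma were 0 for the mural, fibroblast and basement membrane lists and 1 for the immune list. The part of these cell types in the level of Kdr was not tested.

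**Figure D4:**
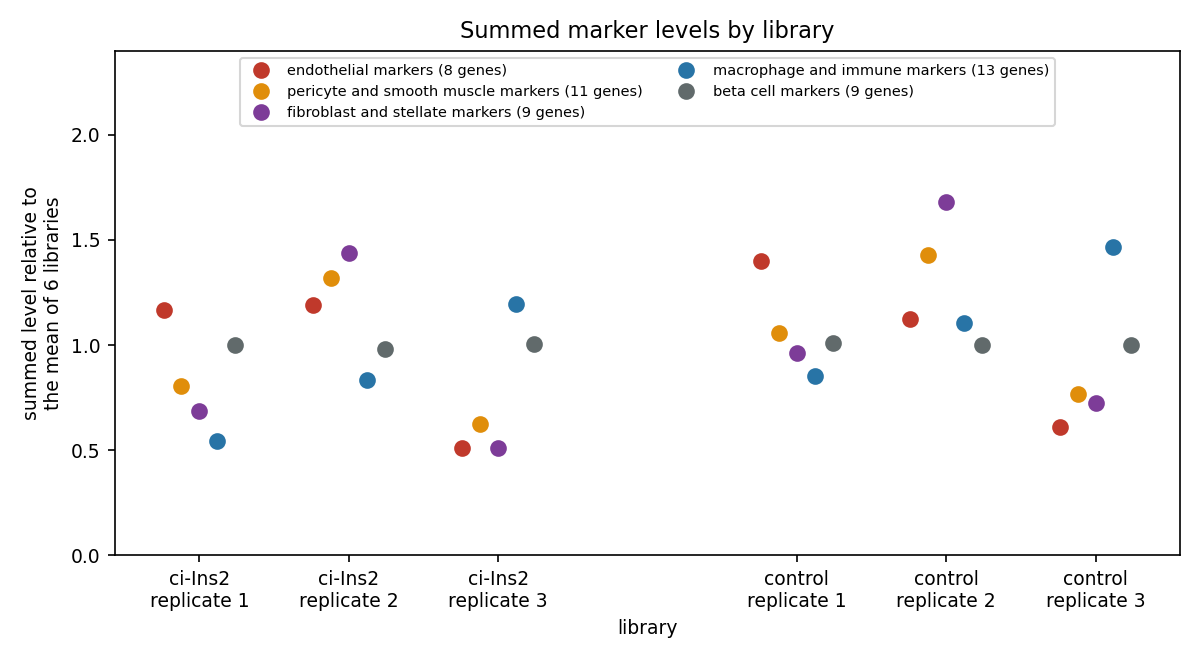
Summed level of 5 marker lists in each library, divided by the mean of the list over the 6 libraries, with ci-Ins2 libraries left of control libraries. Replicate 3 is low for endothelial, mural and fibroblast markers in both groups and high for macrophage and immune markers. It is level for the sum of beta cell markers, which Ins1 and Ins2 dominate.

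The genes most like the members in pattern were found by the Pearson correlation with the members' average profile over the 6 libraries, among 8083 genes with a mean of at least 5 units. The floor of 5 units left out genes of lower level, and several of the members themselves lie below it. Adgrl4, a further endothelial marker with a mean of 1.90 units, had r = 0.994 and was left out. It was named after its values were seen. The closest gene above the floor was Cd93, a receptor of endothelial cells that was on the list of further endothelial markers, with r = 0.988. Cd93 had 8.24, 9.70 and 2.38 units in ci-Ins2 libraries 1, 2 and 3, against 11.0, 6.67 and 3.21 units in control libraries 1, 2 and 3. Rgs5 and Cxcr4, from the mural and tip lists, were also among the 10 closest, with r = 0.985 and r = 0.975. The other 7 were Rtn4ip1, Ghrl, Nell1, Ptn, Tmem53, Ufl1 and Sfrp5, none of them on a list used here. Ghrl, the ghrelin gene that marks the rare epsilon cells of the islet, had 24.0, 23.6 and 6.70 units in the ci-Ins2 libraries, against 24.0, 17.4 and 6.59 units in the control libraries. Sfrp5, a secreted WNT inhibitor, had 32.6, 27.3 and 2.03 units in the ci-Ins2 libraries, against 27.0, 24.3 and 1.61 units in the control libraries. Low values in animal 3 were thus not confined to genes of the vessel wall. With 6 libraries and so many candidates, high correlations arise among many genes, and no p is given.

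The median correlation with the members' profile was 0.937 over the 17 further endothelial markers, 0.902 over the 5 tip genes and 0.884 over the 11 mural genes. It was 0.763 over the 9 basement membrane genes and 0.668 over the 7 fibroblast genes. Over the 10 macrophage and immune genes it was -0.616, over the 9 beta cell genes -0.127, and over all genes -0.013.

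Several members had more than 1 transcript. Kdr was split over 3 transcripts that took 40.7%, 30.4% and 29.0% of its level on average. The leading one, ENSRNOT00000085089, took 40.2%, 39.8% and 39.5% in ci-Ins2 libraries 1, 2 and 3, against 41.9%, 40.8% and 40.3% in control libraries 1, 2 and 3, so the lower level in the ci-Ins2 libraries was spread over all 3. With the most abundant transcript of each gene alone, the log2 fold change of Kdr was -0.35 in the fit with the block. Cdh5 had 2 transcripts with 58.6% and 41.4% of its level, and Plvap 2 with 52.7% and 47.3%. Esam had 2 with 81.3% and 18.7%, and Tie1 had 3 with 49.5%, 42.0% and 8.47%. Flt1, Tek and Egfl7 had 1 transcript each. The shares are estimates that depend on how reads common to several transcripts were divided.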

How the data were processed

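Polyadenylated RNA of the 6 samples was sequenced by the authors (stranded library, single-end reads). Reads were aligned by them to Ensembl transcripts of the rat (rn6) using STAR 2.5.3a, and RSEM 1.3.0 gave the abundance of each transcript. The deposited values are relative abundance scores per transcript, with 1 value per library and replicates not pooled. No source used here names their unit, and their sum of 10000000 per library is 10 times that of TPM. They are not counts and hold no depth, so no counting interval was computed. The deposited mean of the controls (1 column), the authors' own fold changes, p-values and pathway enrichments, and a mouse circRNA annotation were not used.

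Values were divided by 10 and summed over the 40771 transcripts by gene name. Levels are printed on this scale. For the fits they were divided by median-of-ratios size factors, which lay between 0.962 and 1.04. Genes with at least 1 unit in at least 3 of 6 libraries were kept, and log2 of the value plus a pseudocount of 1 was fitted in limma 3.58.1 (R 4.3.3) with the prior variance following the mean level, and p-values were adjusted by Benjamini-Hochberg across the 13927 genes. The main fit compared the ci-Ins2 with the control group without a block. The pairing comes from the study's reporting summary, which names a shared passage or animal for each replicate. Deviations from the group means correlated at 0.462, 0.493 and 0.419 for the same number, and between -0.266 and -0.157 for different numbers. Counts of direction, overlap and lowest library used scaled values for the members and for all genes. In the other lists, the counts of lowest library and the overlap of single genes used unscaled values. The procedure was tested on simulated data.

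All members are given in full. From each other list, at most the 4 tested genes with the highest mean and the 4 with the smallest adjusted p were named. Other names are marked where they stand. The lymphatic list is an exception, as all 6 of its markers are named though only Pdpn was tested. The members and the lists were chosen with earlier results of these data known. The comparison between animals, and the block combined with other settings, were added after the data had been seen. Alternatives were the block, the most abundant transcript of each gene in place of the sum, a pseudocount of 0.1 or 5, a minimum of 5 units or none, no trend of the variance, leaving out each library, and either unscaled values or values scaled to a total that omits the 20 most abundant genes. Figures were drawn with matplotlib 3.10.9 in Python 3.11.15, and promoter sequences come from RefSeq (GRCr8).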

Additional observations from a re-analysis of the deposited data

How the results depend on the processing

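The replicate number as a block, which stands for the animal, raised the genes called over the whole table to 1428 lower and 729 higher, against 488 and 141 without it, and the endothelial markers called lower to 1, Kdr. It changed no other call among the markers. Together with another setting the block kept the call of Kdr at pseudocounts of 0.1 and 5 (log2 fold changes of -0.44 and -0.25), at a filter of 5 (-0.38) and with the most abundant transcript (-0.35), and lost it, at folds of similar size, with no filter (-0.38, adjusted p in limma 0.11), no scaling (-0.35, 0.056), the total without the 20 most abundant genes (-0.37, 0.051) and no trend (-0.38, 0.058). With no filter, 89 genes were called higher, and 0 endothelial markers differed between animals.

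Leaving out each library in turn gave 187 to 309 genes lower and 35 to 73 higher, and 1 to 5 markers that differed between animals. The log2 fold changes without a block ranged from -0.63 to 0.15 for Cdh5, -0.81 to 0.10 for Kdr, -0.46 to 0.062 for Flt1, -0.18 to 0.28 for Plvap, -0.30 to 0.18 for Esam, -0.34 to 0.18 for Tie1, -0.14 to 0.22 for Tek and -0.14 to 0.22 for Egfl7, and no marker passed the threshold in any of these fits. Where 1 library of a group is left out beside the block, its animal has a single library and adds nothing to the difference. In those fits the sign turned for Plvap (-0.075 and -0.076), Esam (0.0913), Tek (-0.035) and Egfl7 (-0.042). The causes were not tested.

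With 3 animals, levels of 0.397 to 14.3 units and no read depth in the files, differences smaller than the intervals given above were not detectable, and the counting error of the scarcest markers, Tek above all, is unknown.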
